A study of Mus musculus with 9 samples.

Results

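Gene expression was compared between haematopoietic stem cells (HSCs) of mice under brain inhibition that were also given spermidine and HSCs of control mice, with the question of which differences from control were present despite the spermidine. The comparison used every library of both groups, 3 spermidine and 3 control libraries of the 9 in the series, and every gene that passed a filter on low counts, 14461 of the 19454 listed. All mice are labelled wild type and the tissue is bone marrow. Control libraries carry no further intervention in their labels. Inhibition libraries come from mice with chemogenetic inhibition of mPFC and PAG, abbreviations commonly used for periaqueductal grey (PAG) and medial prefrontal cortex in the brain. Spermidine libraries come from mice with that same inhibition and a spermidine supplement, so inhibition is shared by both treated groups and no library analysed here had spermidine without it. The library names of both inhibited groups carry AAV, the usual short name of an adeno-associated viral vector, but the labels name no receptor, promoter, ligand, dose, duration, age, sex, strain or sort markers. They do not say whether replicates are separate mice, so p-values measure only the spread between these libraries, which may be technical.

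HSCs are the self-renewing cells at the top of the blood lineage, largely quiescent in the adult, and with age they are known to lean towards platelet and myeloid output at the cost of lymphoid output. Spermidine is a polyamine made from ornithine through putrescine. Cells use it to form hypusine on the translation factor eIF5A, and it is known as an inducer of autophagy. Chemogenetic inhibition silences selected neurons through an engineered receptor that answers to a drug with little action elsewhere.

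Each library was made from 1500 sorted cells with 12 PCR cycles and held 16096276 to 25360256 estimated counts. Levels are CPM, counts relative to the library total after scaling by the trimmed mean of M values (TMM), and a count of 0 in a library (taken as up to 3 counts) allows up to 0.117 to 0.184 CPM, which covers counting error only. Log2 expression correlated at 0.9906 to 0.9927 within the control and within the spermidine group, at 0.897 to 0.9026 between them, and at 0.9699 to 0.9723 between spermidine and inhibition libraries. Spermidine libraries had more genes over 1 CPM (12355 to 12442) than control (11479 to 11525) or inhibition (11710 to 11740) libraries, and higher TMM factors, 1.124 to 1.139 against 0.931 to 0.9499 in the other groups.

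The cell-type label was read against 13 markers of HSCs and of the next progenitors, of which 9 were higher and 3 lower in the spermidine libraries than in control. The higher ones include Cd34 and Flt3, which are not specific to long-term HSCs, and Kit, whose call was lost under many alternatives. Cd48 is among the lower ones, by only -0.17. These counts are therefore no measure of HSC identity. In the control libraries several defining markers were close to the floor. Procr (EPCR, a surface marker of long-term HSCs; chromosome 2, 155751117 to 155755471, plus strand) stood at 0.0607, 0.161 and 0.155 CPM, Fgd5 (an HSC marker) at 0, 0.215 and 0.413 CPM and Hoxb5 (a homeobox factor restricted to long-term HSCs) at 0.364, 0.161 and 0.258 CPM. In the spermidine libraries the same markers were at 7.498, 7.24 and 8.03 CPM for Procr, 1.89, 1.49 and 1.38 CPM for Fgd5 and 1.37, 1.13 and 1.44 CPM for Hoxb5, above every control library. The control libraries also held RNA of platelet and red cell genes, with a mean of 2673 CPM for Pf4 (platelet factor 4) and 1597 CPM for Car1 (carbonic anhydrase of red cell precursors). In bulk samples such as these, fewer cells of a type and less RNA per cell cannot be told apart, and any difference in sort gate, strain, sex or handling between groups cannot be told apart from the treatment.

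Between spermidine and control, 11293 of 14461 genes passed an adjusted p of 0.05 (78.1%), 5930 higher (41%) and 5363 lower (37.1%) in the spermidine libraries. Of these, 2991 (20.7%) were at least 2-fold higher and 1766 (12.2%) at least 2-fold lower. Tests were edgeR's quasi-likelihood test with Benjamini-Hochberg adjustment over all tested genes, differences below are log2 fold changes of CPM with their standard errors (SE), and adjusted p-values come from this test. Libraries of the 2 groups did not overlap at 11547 genes (79.8%). With so many genes called, a share of a gene list near 41% higher or 37.1% lower is the background level and not a property of the list. The balance of the calls depends on scaling, since 52.5% of them were higher under TMM and 67.7% (7705 higher, 3682 lower) when libraries were scaled by total count, which moved the median of all genes by 0.263 from 0.0597. Falls smaller than that shift have no settled direction. For list counts under total count scaling, the background against control is thus those 7705 higher and 3682 lower genes, with a median of 0.323. For spermidine against inhibition under that scaling it is 7711 higher and 1793 lower of 14461 genes, with a median of 0.288. With 3 libraries against 3, an exact permutation test of a single gene could not go below p = 0.10 and none was used.

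The 10 largest rises, among genes with a given name and a mean of 5 CPM or more in the higher group, were, in order, Tpm3-rs7, Jchain, Ddx3y, Gbp8, Meiob, Eif2s3y, Prok2, Gbp2b, Wfdc18 and Procr. Jchain (the joining chain of secreted IgM and IgA; chromosome 5, 88519809 to 88527891, minus strand) stood at 1.15, 0.644 and 0.619 CPM in control and 191, 189 and 203 CPM in spermidine libraries, a log2 difference of 7.93 ± 0.09 (adjusted p = 4.4e-20), with inhibition alone at 600.1, 565 and 573 CPM. Prok2 (the secreted peptide prokineticin) stood at 0.303, 0.107 and 0.258 CPM in control and 20.5, 19.4 and 20.4 CPM in spermidine libraries, and Procr at 7.498, 7.24 and 8.03 CPM in the latter. The spermidine libraries lay far above control at each of these 3 genes, and inhibition libraries above control too. Gbp8 and Gbp2b, which encode interferon-induced GTPases, had 3 counts each over the 3 control libraries, and the ratio of spermidine to control was 196 for Gbp8 (95% exact counting interval 66.8 to 953) and 93.9 for Gbp2b (31.9 to 458). Reads of Tpm3-rs7, a near copy of Tpm3, of the Gbp and Wfdc families and of Y-linked genes with X-linked partners can be shared between copies, so these values are uncertain. The effective length of the counted transcripts differed too, by -0.63 at Jchain, -0.66 at Ddx3y and 0.63 at Gbp8 on the log2 scale, and its part in the count difference was not tested.

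The 10 largest falls were Emc1, Fbxl13, H4c12, Pdzph1, Car1, Atp1b2, Prss50, Klf1, Gml2 and Parm1. Car1 (chromosome 3, 14766216 to 14808368, minus strand) fell from 1579, 1595 and 1616 CPM in control to 26.2, 26.2 and 25.7 CPM in spermidine libraries, a log2 difference of -5.94 ± 0.03 (adjusted p = 1.1e-23). Klf1, the erythroid master regulator of the Krüppel-like factors, fell from 66.7, 69.7 and 71.9 CPM to 1.69, 1.49 and 1.99 CPM (-5.35 ± 0.10, adjusted p = 5.1e-17). Atp1b2, a beta subunit of the sodium pump, had mean levels of 14.2 CPM in control and 0.314 CPM in spermidine libraries. At these genes every spermidine library lay below every control library. Emc1, a subunit of the membrane insertase of the endoplasmic reticulum, was at 0.0607, 13.4 and 14.4 CPM in control, 0, 19.6 and 2.35 CPM in inhibition and 0.0403, 0 and 0 CPM in spermidine libraries, so it switched between near absence and expression within groups, and its fitted fold carries an SE of 2.27. Its spermidine libraries held 1 count in all, for a ratio to control of 0.0015 (95% exact counting interval 3.79e-05 to 0.00839), and its call was lost in limma on TPM.

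**Figure D1:**
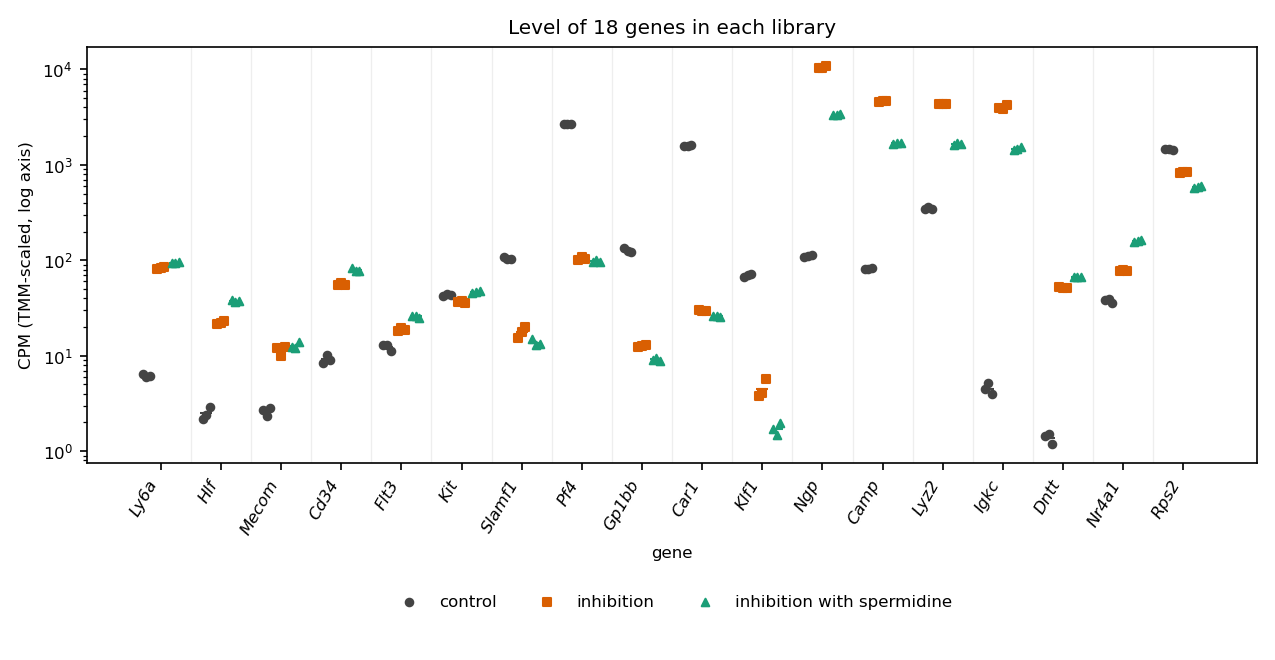
Level of 18 genes in each library, as TMM-scaled CPM on a log axis, with control (circles), inhibition (squares) and inhibition with spermidine (triangles) side by side and a line at each group mean. Pf4 and Car1 lie near the inhibition level in spermidine libraries, Ngp, Camp, Lyz2 and Igkc lie between control and inhibition, and Hlf, Cd34 and Nr4a1 lie above both.

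Most platelet genes and several red cell genes stayed low despite spermidine. Of 28 megakaryocyte and platelet genes tested, 23 were lower and 3 higher than control, with a median log2 difference of -1.47. Pf4 (chromosome 5, 90772435 to 90773383, plus strand) stood at 2666, 2681 and 2670.0 CPM in control, 100.2, 107 and 104 CPM in inhibition and 95.7, 101 and 95.6 CPM in spermidine libraries (-4.78 ± 0.03, adjusted p = 1.4e-22). Gp1bb, the beta chain of the von Willebrand factor receptor on platelets, fell from 134, 126 and 122 CPM to 9.11, 9.51 and 8.86 CPM (-3.79 ± 0.05, adjusted p = 7.1e-19). The control range lay above the spermidine range at both genes. Itga2b (integrin alpha IIb, CD41) differed by -2.69 with means of 31.3 and 4.89 CPM, and Vwf (von Willebrand factor, also a marker of platelet-biased HSCs) by -2.45 with means of 42.6 and 7.75 CPM. Inhibition alone against the same control libraries, where 72.4% of all genes were called in either direction, gave 23 of the 28 lower (36.1% of all genes) and a median of -1.44. Tested directly, spermidine against inhibition gave 8 higher and 5 lower (29.1% and 28.9% of all genes) with a median of 0.07, or 19 higher and 3 lower with a median of 0.33 under total count scaling. Under that scaling the median of all genes was 0.288 in this contrast, with 7711 of 14461 higher and 1793 lower, so the median of the list was near background. At Pf4 the direct difference under TMM was -0.09 ± 0.03 (95% interval -0.16 to -0.02). The summed CPM of the list was 5493 to 5575 in control, 1457 to 1485 in inhibition and 1415 to 1434 in spermidine libraries, so under TMM spermidine libraries sat next to inhibition ones.

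Of 25 erythroid genes, 16 were lower and 7 higher, with a median of -0.84. Its members moved in both directions. Gata1, the transcription factor of both erythroid and megakaryocyte lineages, fell from 21.8, 21.7 and 21.3 CPM to 2.298, 2.74 and 2.77 CPM (-3.06 ± 0.09, adjusted p = 1.8e-14) and Epor, the erythropoietin receptor, from 9.46, 8.47 and 9.18 to 0.363, 0.744 and 0.498 CPM (-4.05 ± 0.18, adjusted p = 3.0e-12). The haemoglobin genes were higher instead, Hba-a1 at 24.3, 25.05 and 21.2 CPM in control and 74.3, 79.7 and 80.3 CPM in spermidine libraries (1.73 ± 0.06, adjusted p = 7.7e-14) with inhibition at 170.5, 173 and 188 CPM, and its near-identical copy Hba-a2 and Hbb-bt differed by 1.57 and 2.14. Klf1, Gata1 and Epor thus lay below control while globin RNA lay above it. Of 12 haem synthesis genes 8 were lower, with Cpox (coproporphyrinogen oxidase) falling from a mean of 909 to 107 CPM, and 4 were higher, with Abcb10, a mitochondrial transporter of erythroid cells, rising from a mean of 7.12 to 149.8 CPM (4.39 ± 0.07, adjusted p = 3.0e-18).

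Upstream sequences are shown for 3 genes of these lineages that fell and 1 that rose, because they hold the same letters. They are the 120 bases before the start site in RefSeq promoter windows of GRCm38.p6, the RefSeq release of the build mm10. Klf1 lies at chr8:84901862-84901981 on the plus strand, Gp5 at chr16:30310782-30310901 on the minus strand, F2rl2 at chr13:95696800-95696919 on the plus strand and Mmrn1 at chr6:60944197-60944316 on the plus strand. The Mmrn1 window lies inside the GENCODE bounds of that gene, 60924976 to 60989378, so it precedes the RefSeq start but not the GENCODE one. Capitals mark AGATAA or TGATAA, the letters read by GATA factors, or their reverse complements.
Klf1: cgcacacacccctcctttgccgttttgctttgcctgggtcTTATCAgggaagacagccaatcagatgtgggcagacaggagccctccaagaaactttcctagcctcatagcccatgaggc
Gp5: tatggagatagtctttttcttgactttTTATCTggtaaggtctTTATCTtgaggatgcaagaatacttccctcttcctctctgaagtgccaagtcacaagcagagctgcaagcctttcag
F2rl2: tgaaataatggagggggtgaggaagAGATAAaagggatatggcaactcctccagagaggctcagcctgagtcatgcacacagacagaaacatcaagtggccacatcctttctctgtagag
Mmrn1: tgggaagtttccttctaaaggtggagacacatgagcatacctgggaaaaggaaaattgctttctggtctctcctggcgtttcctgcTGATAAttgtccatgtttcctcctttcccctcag

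These letters were searched on both strands over 250 bases before to 50 after the start. They were present for 8 of the 20 megakaryocyte genes that had a window, 40%. Of the 10 largest falls and the 10 largest rises, 7 each had a window, and 2 of the 7 held the letters in both sets. The share was 13.8% of the 10909 tested genes with a window and 21% of all 27025 genes of the promoter table. CCGGAAG, the letters of ETS factors, was found for 0 of the 20 megakaryocyte genes against 18.8% of tested genes. Gp5 (platelet glycoprotein V) fell from 11.1, 12.8 and 12.5 CPM to 1.09, 1.41 and 1.49 CPM and F2rl2 (a thrombin receptor of platelets) from 139, 150.4 and 136 to 16.1, 17.5 and 16.1 CPM. Mmrn1 (multimerin, of platelet granules), named after its values were seen, holds the letters too and was at 20.8, 22.2 and 21 CPM in control and 30.8, 28.7 and 31.4 CPM in spermidine libraries (0.50 ± 0.06, adjusted p = 7.4e-07). Genes with the same letters thus moved in both directions, and a match of letters is a description and no binding site.

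More genes of HSC identity were higher than lower with spermidine against control, and several exceeded the level of inhibition alone. Of 36 such genes, 22 were higher, 12 lower and 2 did not pass, with a median of 0.33. The shares were 61.1% higher and 33.3% lower, against 41% and 37.1% of all genes, so the lower share was near background. Inhibition alone gave 18 higher and 16 lower (50% and 44.4%, against 36.2% and 36.1% of all genes), with a median of 0.15. Hlf, a transcription factor of long-term HSCs (chromosome 11, 90336536 to 90390895, minus strand), stood at 2.18, 2.41 and 2.89 CPM in control, 21.6, 22.1 and 23.1 CPM in inhibition and 38.2, 36.9 and 37.7 CPM in spermidine libraries (3.90 ± 0.08, adjusted p = 1.2e-16). Ly6a, which encodes the stem cell antigen Sca-1 (chromosome 15, 74994877 to 74998031, minus strand), stood at 6.49, 6.06 and 6.09 CPM in control, 81.2, 83.4 and 86 CPM in inhibition and 94.6, 93.8 and 95.03 CPM in spermidine libraries (3.93 ± 0.05, adjusted p = 3.7e-19). Control was the lowest of the 3 groups at both genes, without overlap. Cd34, a surface marker that mouse long-term HSCs hold at a low level, stood at 8.37, 10.2 and 9.08 CPM in control and 82.1, 76.8 and 77.2 CPM in spermidine libraries (3.09 ± 0.06, adjusted p = 5.1e-17), and Flt3, a receptor of multipotent and lymphoid-primed progenitors, at 13.04, 12.9 and 11.4 CPM in control and 26.2, 26.3 and 25.1 CPM in spermidine libraries (1.06 ± 0.06, adjusted p = 1.5e-10). Mecom (EVI1, needed for HSC maintenance) differed from control by 2.26 and Ifitm1 (an interferon-induced membrane protein) by 2.84. Named markers of HSCs and of the next progenitors were therefore above control. Slamf1 (CD150, used to sort long-term HSCs) went the other way, from 109, 102 and 102 CPM to 15, 12.99 and 13.3 CPM (-2.92 ± 0.07, adjusted p = 4.8e-16), as did Ctnnal1, with means of 5.38 and 3.41 CPM. Kit, the stem cell factor receptor, was at 42.3, 44.9 and 42.8 CPM in control and 45.3, 47 and 47.2 CPM in spermidine libraries, and its adjusted p of 0.042 was lost under 12 of 20 alternatives. In the direct contrast with inhibition 25 of the 36 genes were higher and 3 lower with spermidine, by a median of 0.43. These were 69.4% and 8.33%, against 29.1% and 28.9% of all genes. At Hlf that difference was 0.75 ± 0.05 (adjusted p = 7.2e-09).

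Genes listed for HSC ageing were split, 21 higher and 15 lower of 43 (48.8% and 34.9%, against 41% and 37.1% of all genes), with a median of 0.28. Nr4a1, an orphan nuclear receptor of quiescent HSCs, stood at 38.2, 39.2 and 36.1 CPM in control, 76.6, 78.3 and 77.7 CPM in inhibition and 155, 161 and 161 CPM in spermidine libraries (2.07 ± 0.04, adjusted p = 2.4e-17), highest with spermidine. Cd9, a tetraspanin of HSCs and platelets, fell from 733, 717 and 711 CPM to 216, 213 and 211 CPM (-1.75 ± 0.03, adjusted p = 3.1e-18), and Mt2, a metallothionein, from a mean of 62.4 to 5.03 CPM. Cdkn1c (p57, a brake on the HSC cycle) rose from 1.33, 1.18 and 1.81 CPM to 7.18, 5.4 and 5.76 CPM (2.08 ± 0.18, adjusted p = 1.4e-08), with a shift of -0.51 in effective length beside it. Cdkn1b (p27, another such brake) differed by 0.88 and Ccnd2 (cyclin D2) by -0.51. Among 13 CDK inhibitors and G1 cyclins 8 were higher and 3 lower (61.5% and 23.1%, against 41% and 37.1% of all genes).

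**Figure D2:**
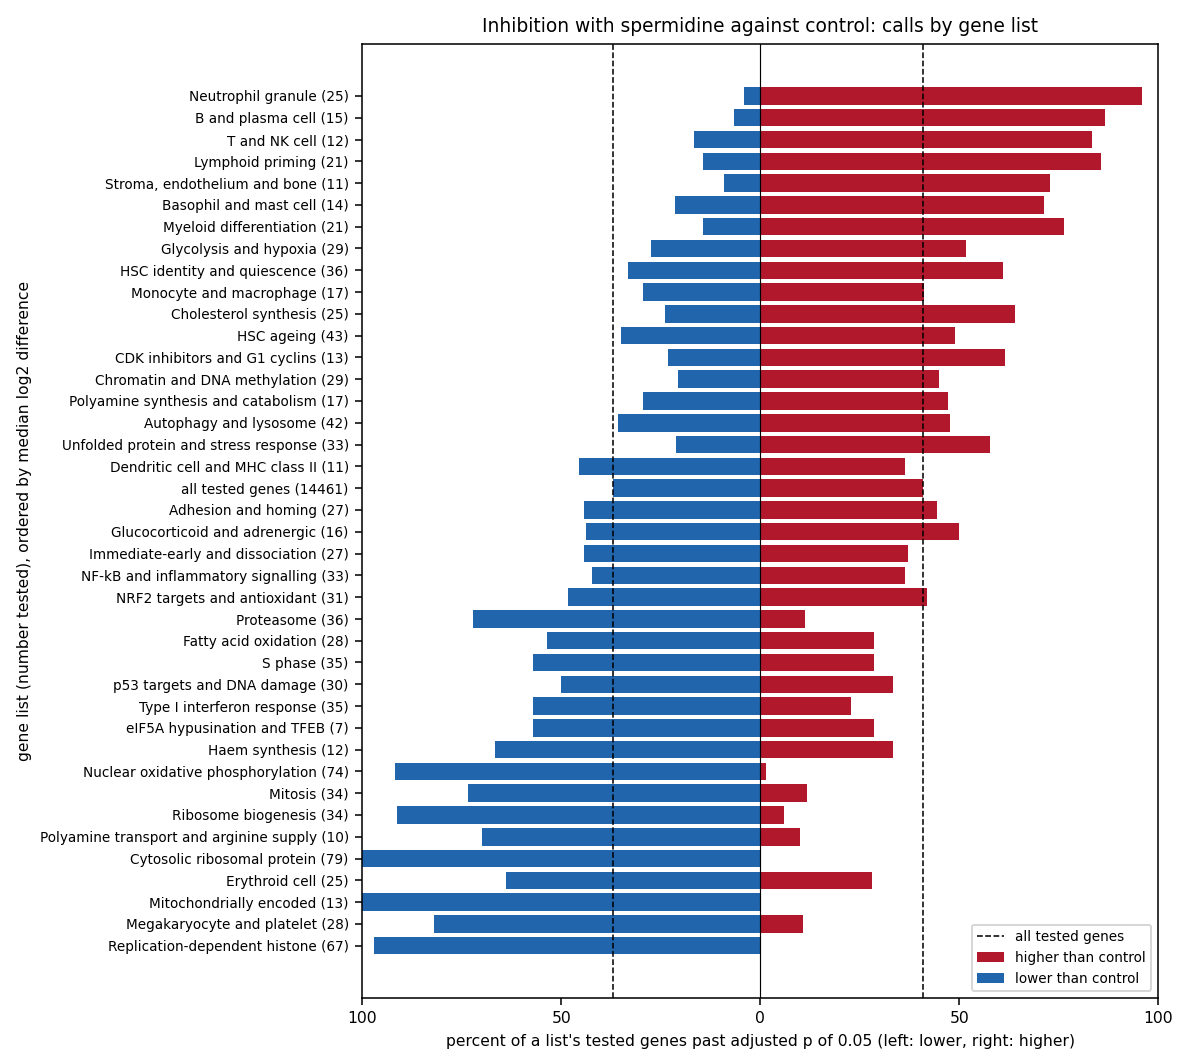
Share of the tested genes of each list that were higher (right) or lower (left) in spermidine than in control libraries at an adjusted p of 0.05, with the number tested in brackets and dashed lines at the shares over all tested genes. Ribosomal protein, mitochondrially encoded, histone and oxidative phosphorylation genes lie almost wholly on the lower side, and neutrophil granule genes almost wholly on the higher side.

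Neutrophil granule and B cell transcripts were above control despite spermidine, although below inhibition alone. Of 25 neutrophil granule genes 24 were higher and 1 lower than control, with a median of 4.07. Ngp, a granule protein of neutrophil precursors (chromosome 9, 110419747 to 110423012, plus strand), stood at 108, 110.4 and 113 CPM in control, 10439, 10241 and 10876 CPM in inhibition and 3310.2, 3296 and 3379 CPM in spermidine libraries (4.91 ± 0.03, adjusted p = 1.3e-22). Camp (cathelicidin) differed by 4.36 ± 0.03 (adjusted p = 1.4e-22) with means of 82.1, 4632 and 1681 CPM in control, inhibition and spermidine libraries, and S100a9 (a calprotectin subunit) by 3.90. The 3 groups did not overlap at these genes. In the direct contrast with inhibition 25 of 25 granule genes were lower with spermidine, by a median of -1.54. Their share of all counts was 0.6706 to 0.6848% in control, 6.508 to 6.641% in inhibition and 2.834 to 2.944% in spermidine libraries, so it was lower than with inhibition alone and still above control. Of 21 myeloid differentiation genes 16 were higher and 3 lower than control. Lyz2 (lysozyme) differed by 2.24 ± 0.03 (adjusted p = 1.7e-19), while Mpo (myeloperoxidase, of early granulocyte precursors) was at 1002, 978 and 936 CPM in control and 1020.1, 1057 and 1071 CPM in spermidine libraries, a difference of 0.11 whose call was lost under 5 alternatives, among them without control replicate 3 (0.068). Monocyte and macrophage genes were mixed, 7 higher and 5 lower of 17 (41.2% and 29.4%, against 41% and 37.1% of all genes). Among them Cd14 (an endotoxin co-receptor) was at a mean of 7.07 CPM in control and 29.4 CPM in spermidine libraries, and Fn1 (fibronectin) at 108.9 and 18.9 CPM. The monocyte markers Csf1r and Ccr2 differed from control by -0.08 and 0.10 and were not called.

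Of 15 B and plasma cell genes 13 were higher and 1 lower than control. Igkc, the kappa light chain constant region, stood at 4.49, 5.15 and 3.97 CPM in control, 3935, 3877 and 4276 CPM in inhibition and 1417, 1461 and 1539 CPM in spermidine libraries (8.34 ± 0.07, adjusted p = 6.7e-22). All immunoglobulin genes held 0.002527 to 0.002692% of counts in control, 0.6261 to 0.6536% in inhibition and 0.2955 to 0.3157% in spermidine libraries. These transcripts were close to absent in control and rich in both treated groups. T and NK cell genes were higher for 10 of 12, with Klrb1c (the NK receptor NK1.1) at 0.303, 0.215 and 0.258 CPM in control and 3.31, 2.94 and 4.15 CPM in spermidine libraries, and lower for 2, among them Nkg7 (a cytotoxic granule protein) at means of 1311 and 1026 CPM. The basophil and mast cell list gave 10 higher and 3 lower of 14, and the stroma, endothelium and bone list 8 higher and 1 lower of 11, among them Emcn (endomucin, of endothelium and HSCs), which rose from 1.33, 1.23 and 1.44 to 29.3, 28.8 and 27.6 CPM (4.41 ± 0.10, adjusted p = 4.2e-16). Of these 2 lists 71.4% and 72.7% were higher and 21.4% and 9.09% lower, against 41% and 37.1% of all genes. Cd3e and Cdh5, defining markers of T cells and endothelium, did not pass the filter on low counts in any group. The summed CPM of the granule list was 7065 to 7345 in control and 25210.0 to 25850.0 in spermidine libraries, and that of the B and plasma cell list 145 to 147 and 1861 to 2000.0. The monocyte list summed to 1040.0 to 1076 CPM in control and 2200.0 to 2290.0 CPM in spermidine libraries. The T and NK list, whose sum is mostly Nkg7, was at 1307 to 1388 and 1029 to 1106 CPM. The part of such cells in other differences was not tested gene by gene. Without 246 listed genes, those of the mature and stromal lists and all immunoglobulin genes, 5722 genes were higher and 5381 lower. Leaving out these genes does not remove other RNA of the same cells from the remaining genes, so the counts cannot measure that part.

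Lymphoid priming genes were above control in both treated groups. Of 21 tested 18 were higher and 3 lower with spermidine, with a median of 1.54. Dntt, the terminal transferase of early lymphoid progenitors, stood at 1.46, 1.502 and 1.19 CPM in control, 52.98, 51.1 and 51.3 CPM in inhibition and 67.5, 67.3 and 67.2 CPM in spermidine libraries (5.61 ± 0.07, adjusted p = 3.7e-19). Il2rg (the common gamma chain of cytokine receptors) differed by 2.03 ± 0.03 (adjusted p = 2.9e-18) with means of 93.4 and 380.3 CPM. Control was lowest at both genes. Against inhibition, 11 of the 21 were higher and 6 lower with spermidine, and at Dntt the difference was 0.38 ± 0.04 (95% interval 0.30 to 0.46).

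**Figure D3:**
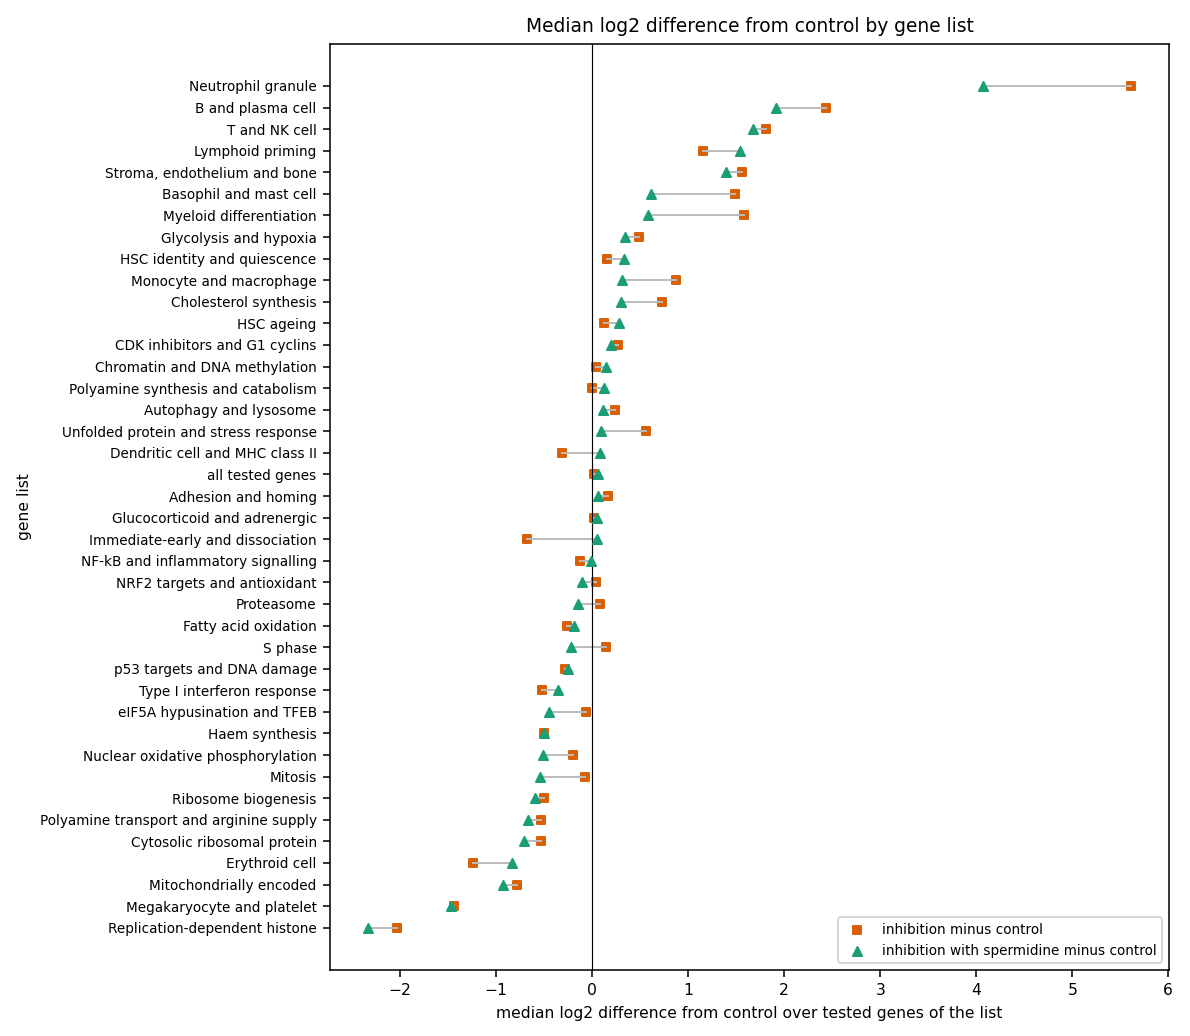
Median log2 difference from control over the tested genes of each list, for inhibition (squares) and inhibition with spermidine (triangles), both against the same control libraries. Under TMM, the scaling shown, the medians of the platelet and haem lists lie close together, and those of neutrophil granule and myeloid lists lie nearer to control with spermidine. Those of mitosis, ribosomal protein and oxidative phosphorylation lists lie farther from control with spermidine. For ribosomal proteins this order rests on TMM, since their median difference from inhibition turned to 0.08 under total count scaling.

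Genes of translation and respiration were below control despite spermidine. All 79 cytosolic ribosomal protein genes were lower than control, with a median of -0.71, and inhibition alone gave a median of -0.53. Under total count scaling 68 of them were lower and 2 higher, with a median of -0.45, and the median nearest 0 over the alternatives was -0.27. Rps2 stood at 1481, 1478 and 1437 CPM in control, 830.3, 851 and 843 CPM in inhibition and 567, 592 and 597 CPM in spermidine libraries (-1.32 ± 0.03, adjusted p = 1.4e-16), and Rpsa (the laminin receptor protein of the small subunit) at means of 2905, 1293 and 1183 CPM. Many ribosomal protein genes have processed copies that share their reads. Ribosomal proteins held 10.96 to 11.1% of counts in control, 7.706 to 8.143% in inhibition and 8.442 to 8.815% in spermidine libraries. In the direct contrast 61 of 79 were lower than in inhibition and 0 higher, by a median of -0.18, a direction that turned under total count scaling (6 lower, 35 higher). Ribosome biogenesis genes gave 31 lower and 2 higher of 34, with Ncl (nucleolin) at means of 539 and 339.9 CPM and Fbl (fibrillarin, of the ribosomal RNA methylation complex) at 80.6 and 28.2 CPM.

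All 13 mitochondrially encoded genes were lower than control, with a median of -0.93, although 1 was higher and 11 lower under total count scaling. The level of CYTB (cytochrome b of complex III) was 19567, 20023 and 19819 CPM in control and 10399.7, 9881 and 10527 CPM in spermidine libraries (-0.95 ± 0.03, adjusted p = 7.3e-14). Of 74 nuclear genes of oxidative phosphorylation 68 were lower and 1 higher, with a median of -0.51 against -0.20 for inhibition alone, and 54 lower and 11 higher with a median of -0.25 under total count scaling. In limma on log2(TPM + 1) 31 were lower and 20 higher, and the median came close to 0 at -0.03. Ndufs6 (complex I) fell from 210.4, 208 and 201 CPM to 92.4, 94.9 and 99.1 CPM (-1.12 ± 0.04, adjusted p = 7.0e-14), and Atp5g1 (the c ring of ATP synthase) fell from a mean of 1496 to 795 CPM with inhibition at 1124 CPM. Every library of the spermidine group lay under every control library at these genes. Against inhibition 70 of the 74 nuclear genes were lower and 0 higher, or 30 lower and 14 higher under total count scaling.

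Replication-dependent histone genes were lower for 65 of 67, with a median of -2.33. H2bc4 fell from 797, 812 and 809.5 CPM to 298, 292 and 300.2 CPM (-1.44 ± 0.03, adjusted p = 2.2e-17) and H1f5 from a mean of 96.7 to 8.91 CPM. Histone genes held 0.9082 to 0.9343% of counts in control, 0.3395 to 0.3636% in inhibition and 0.3352 to 0.3477% in spermidine libraries. These transcripts mostly lack a poly(A) tail, low-input protocols of the kind the labels cite prime on that tail, and near-identical copies share reads, so a level of 1 histone gene is uncertain. Of 34 mitosis genes 25 were lower and 4 higher with a median of -0.54, whereas inhibition alone gave a median of -0.07. Under total count scaling 20 were lower and 9 higher with a median of -0.28, and the median nearest 0 over the alternatives was -0.11. Birc5 (survivin) stood at 363, 376 and 374 CPM in control, 349, 359.6 and 352 CPM in inhibition and 224, 223 and 220.2 CPM in spermidine libraries (-0.74 ± 0.03, adjusted p = 2.8e-13), and Cenpa (the centromeric histone) at means of 152, 128 and 74.8 CPM. Both genes were lowest with spermidine. In the direct contrast 29 of 34 were lower than in inhibition and 1 was higher, or 23 lower and 2 higher under total count scaling. S phase genes gave 20 lower and 10 higher of 35 with a median of -0.22, whose sign turned under total count scaling and in limma on TPM. Among them Ccne2 (cyclin E2) rose from a mean of 29.2 to 60.3 CPM and Orc6 (of the origin recognition complex) fell from 175 to 76.5 CPM. Cdk6, the G1 kinase that sets the exit of HSCs from quiescence, was at 3180.2, 3224 and 3234 CPM in control and 3155, 3172 and 3149.9 CPM in spermidine libraries, a difference of -0.02 under TMM (95% interval -0.07 to 0.02) and 0.239 under total count scaling.

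Polyamine genes were read in the order of the pathway. Odc1 (ornithine decarboxylase, the first committed step) stood at 131, 135 and 130.2 CPM in control, 96.2, 91.8 and 99.5 CPM in inhibition and 112, 113 and 117 CPM in spermidine libraries, a difference of -0.21 ± 0.04 (adjusted p = 5.5e-05) that turned to 0.053 under total count scaling. Its inhibitor Oaz1 (antizyme) differed by 0.33 (adjusted p = 0.0011) and Azin1 (the antizyme inhibitor) by 0.56 (adjusted p = 6.7e-09), both higher than control. Amd1, which makes the aminopropyl donor, was higher by 0.35, and Srm, which makes spermidine, fell from 141, 146 and 139 CPM to 94, 96.2 and 99.9 CPM (-0.56 ± 0.04, adjusted p = 1.9e-09). Sms, which turns spermidine into spermine, differed by -0.17 and by 0.094 under total count scaling, so its direction is not settled. Of the enzymes of breakdown Sat1 and Smox were above control, while Paox (polyamine oxidase), named after its values were seen, fell from a mean of 9.83 to 6.83 CPM (-0.52 ± 0.10, adjusted p = 1.5e-04) but was higher by 0.842 in limma on log2(TPM + 1). Sat1, the acetyltransferase that starts polyamine export and catabolism, stood at 153, 149 and 150.4 CPM in control, 425, 422 and 426 CPM in inhibition and 299, 309.6 and 308 CPM in spermidine libraries (1.02 ± 0.03, adjusted p = 4.4e-15), between control and inhibition. Smox (spermine oxidase) stood at 1.94, 2.15 and 1.86 CPM in control, 1.91, 1.83 and 2.2 CPM in inhibition and 3.87, 3.44 and 3.15 CPM in spermidine libraries (0.82 ± 0.16, adjusted p = 1.5e-04), above both other groups. Of the 17 synthesis and catabolism genes 8 were higher and 5 lower than control, near the background shares.

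Of 10 genes for polyamine transport and arginine supply 7 were lower and 1 higher. Atp13a2, the lysosomal polyamine exporter, fell from 32.03, 28.5 and 30.9 CPM to 7.42, 7.87 and 8.14 CPM (-1.97 ± 0.07, adjusted p = 2.1e-13), with inhibition at 5.47, 5.898 and 6.5 CPM. Slc22a3, an organic cation transporter that also carries polyamines, fell from 86.02, 90.7 and 81.98 CPM to 22.4, 22.6 and 21.9 CPM (-1.95 ± 0.05, adjusted p = 7.7e-16), and its difference between spermidine and inhibition had a 95% interval of -0.12 to 0.11. Both transporters stayed far below control, as with inhibition alone. Eif5a, the target of hypusination, was at 544, 560.0 and 535 CPM in control, 731, 731 and 761 CPM in inhibition and 561, 557 and 570.4 CPM in spermidine libraries, a difference from control of 0.04 ± 0.03 (adjusted p = 0.18) that was 0.306 and called under total count scaling, and a difference from inhibition of -0.40 ± 0.03 (adjusted p = 6.0e-09). Of the 2 hypusinating enzymes, Dhps fell from 12.7, 15.2 and 14.1 CPM to 9.96, 10.8 and 9.91 CPM (-0.45 ± 0.10, adjusted p = 4.1e-04, lost under total count scaling and on TPM) and Dohh from 5.04, 4.83 and 3.61 CPM to 2.499, 2.39 and 2.99 CPM (-0.78 ± 0.16, adjusted p = 3.0e-04). The second isoform Eif5a2 rose from a mean of 1.45 to 4.5 CPM. Of the 7 genes of hypusination and TFEB 2 were higher and 4 lower, a balance that turned under total count scaling and on TPM. Tfeb, the lysosomal regulator whose translation is known to need hypusinated eIF5A, was near 1 CPM (1.395, 1.02 and 1.44 in control, 0.887, 0.509 and 0.553 in spermidine libraries), and its adjusted p of 0.019 was lost under 6 alternatives, among them without control replicate 3 (-0.879) and without spermidine replicate 2 (-0.794). RNA levels of these genes measure neither polyamines nor hypusine.

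Autophagy and lysosome genes gave 20 higher and 15 lower of 42, near the background shares, with a median of 0.11. Under total count scaling 28 were higher and 7 lower, with a median of 0.38, where the median of all genes was 0.323. Tax1bp1 (an autophagy receptor) stood at 108, 106 and 108 CPM in control, 251, 237 and 242 CPM in inhibition and 195, 187 and 201 CPM in spermidine libraries (0.86 ± 0.03, adjusted p = 7.3e-13), and Atg12 (of the conjugation system that builds autophagosomes) at means of 46.2, 117 and 88.3 CPM. Optn (optineurin, another receptor) fell from 37.4, 39.1 and 36.6 CPM to 3.39, 2.82 and 3.93 CPM (-3.50 ± 0.10, adjusted p = 4.8e-15). The first 2 lay between control and inhibition and Optn next to inhibition, and against inhibition 23 of the list were lower and 6 higher with spermidine, a balance that turned to 9 lower and 15 higher under total count scaling.

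**Figure D4:**
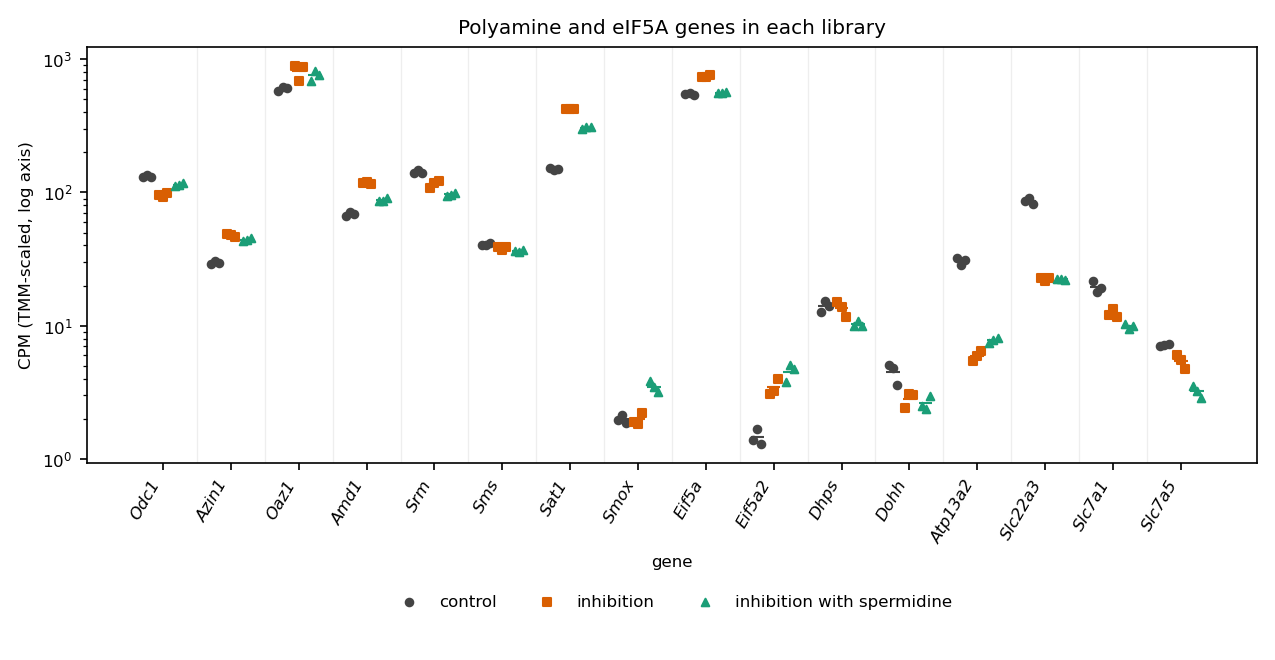
Level of 16 polyamine, eIF5A and transport genes in each library, as TMM-scaled CPM on a log axis, with the same symbols for the 3 groups and a line at each group mean. Atp13a2 and Slc22a3 lie far below control in both treated groups, Sat1 lies between control and inhibition with spermidine, and Smox is highest with spermidine.

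Among 35 interferon response genes 20 were lower and 8 higher (57.1% and 22.9%, against 37.1% and 41% of all genes), with a median of -0.36. Total count scaling gave 16 lower and 12 higher with a median of -0.10, and limma on log2(TPM + 1) 14 lower and 11 higher with a median of -0.04, so the balance was less uneven there. Irf7, the regulator that amplifies the response, fell from 32.6, 30.7 and 29.8 CPM to 5.48, 6.97 and 7.36 CPM (-2.24 ± 0.09, adjusted p = 5.0e-13), and Xaf1 (a pro-apoptotic induced gene) fell from a mean of 675 to 173 CPM. Ifi27 (an induced mitochondrial protein) rose from 218, 212 and 209 CPM to 357, 363 and 378 CPM (0.78 ± 0.03, adjusted p = 8.5e-13). Isg15 (a ubiquitin-like induced protein) and Gbp3 (an induced GTPase), named after their values were seen, moved in opposite directions, and both carry the letters of the interferon response element. Isg15 was at 3.22, 3.65 and 3.25 CPM in control and 0.967, 1.25 and 0.8302 CPM in spermidine libraries (-1.70 ± 0.19, adjusted p = 5.5e-07) and Gbp3 at 7.52, 9.28 and 8.31 CPM in control and 19.1, 18.8 and 17.8 CPM in spermidine libraries (1.15 ± 0.09, adjusted p = 4.6e-09). The 120 bases before their RefSeq start sites in GRCm38.p6, chr4:156200819-156200938 on the minus strand for Isg15 and chr3:142559924-142560043 on the plus strand for Gbp3, are printed for that contrast. A second RefSeq start of Gbp3, with chr3:142560236-142560355 before it, has no match in those 120 bases. Capitals mark the element (TTTC, any 2 bases, TTTC) or its reverse complement, with overlapping matches joined.
Isg15: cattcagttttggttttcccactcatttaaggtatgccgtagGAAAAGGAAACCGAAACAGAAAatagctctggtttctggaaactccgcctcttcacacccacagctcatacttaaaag
Gbp3: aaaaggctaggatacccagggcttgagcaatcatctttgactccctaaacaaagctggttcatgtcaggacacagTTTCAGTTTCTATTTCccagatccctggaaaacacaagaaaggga

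In the windows of 250 bases before to 50 after the start, this element was found for 12 of the 25 interferon genes with a window, 48%, against 4.02% of tested genes with one.

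Immediate-early genes were split, 10 higher and 12 lower than control of 27 with spermidine (37% and 44.4%, against 41% and 37.1% of all genes). That balance was turned by 4 alternatives (total count scaling and limma on TPM), while inhibition alone gave 6 higher (36.2% of all genes) and 20 lower. Fosl2 (an AP-1 subunit) rose from 4.85, 4.67 and 4.64 CPM to 32.97, 32.6 and 28.6 CPM (2.74 ± 0.09, adjusted p = 3.1e-14) and Jun (another) fell from 329, 321 and 329 CPM to 106, 111 and 103 CPM (-1.61 ± 0.03, adjusted p = 1.1e-16), with inhibition at 73.4, 76.3 and 76.8 CPM. Directly against inhibition 22 of 27 were higher and 2 lower. NF-kB and inflammatory genes gave 12 higher and 14 lower of 33, with no settled direction under other scaling, and Ccl4 (a chemokine) rose from a mean of 113 to 398 CPM while Cxcl10 (another, interferon-induced) fell from 51.8 to 14.4 CPM. Nr3c1, the glucocorticoid receptor, was at 24.1, 25.96 and 26.98 CPM in control and 25.4, 27.04 and 26.6 CPM in spermidine libraries, a difference of 0.03 (95% interval -0.08 to 0.15) under TMM and of 0.296, called, under total count scaling, with a shift of 0.55 in effective length beside it. Hsd11b1, which regenerates active glucocorticoid, rose from a mean of 7.698 to 44.1 CPM with inhibition at 96.5 CPM, and the metallothionein Mt1 fell from 682 to 276 CPM with inhibition at 535 CPM.

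Of the metabolic and stress lists, cholesterol synthesis gave 16 higher and 6 lower of 25, glycolysis and hypoxia 15 and 8 of 29, and the unfolded protein response 19 and 7 of 33. In that order 64%, 51.7% and 57.6% were higher and 24%, 27.6% and 21.2% lower, against 41% and 37.1% of all genes. Insig1 (the sterol-sensing anchor of SREBP) rose from 145, 136 and 133 CPM to 439.7, 422 and 437 CPM (1.65 ± 0.04, adjusted p = 1.5e-16), Ldhb (a lactate dehydrogenase subunit) from a mean of 13.2 to 85.9 CPM, and Dnajb9 (a chaperone of the endoplasmic reticulum) from 132 to 311 CPM. Fatty acid oxidation (8 higher, 15 lower of 28), p53 targets (10, 15 of 30), NRF2 targets (13, 15 of 31) and proteasome genes (4, 26 of 36) had more genes lower, but the sign of each median turned under total count scaling and on TPM. In that order 28.6%, 33.3%, 41.9% and 11.1% were higher and 53.6%, 50%, 48.4% and 72.2% lower, against 41% and 37.1% of all genes. Cpt1a, the entry step of fatty acid oxidation, fell from 39.3, 41.2 and 38.8 CPM to 19.99, 19.4 and 18.9 CPM (-1.03 ± 0.05, adjusted p = 8.7e-12). Chromatin regulators gave 13 higher and 6 lower of 29 (44.8% and 20.7%, against 41% and 37.1% of all genes). Kdm6b (a histone H3 lysine 27 demethylase) was at means of 114 CPM in control, 151 CPM in inhibition and 284 CPM in spermidine libraries. Sirt1 (a deacetylase) was at 50.7 and 17.7 CPM in control and spermidine libraries. Adhesion and homing genes (12 and 12 of 27), glucocorticoid and adrenergic genes (8 and 7 of 16) and dendritic cell and MHC class II genes (4 and 5 of 11) were about evenly divided, and which side held more genes changed with the alternative.

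Differences from control that stood about as far out with spermidine as without it were picked as the largest whose 95% interval of spermidine minus inhibition lay within 0.5 of 0 on the log2 scale. The 6 largest rises of this kind were Tpm3-rs7, Wfdc17, Vldlr, Dntt, Tmem37 and Cox6a2. The 6 largest falls were Car1, Pf4, Ptk2, S100a2, Dpep2 and Phkg1. Vldlr, a lipoprotein receptor, stood at 1.21, 0.697 and 0.568 CPM in control, 38.2, 34.6 and 37.8 CPM in inhibition and 43.01, 40.8 and 40.8 CPM in spermidine libraries (5.67 ± 0.12 from control, adjusted p = 1.5e-16, and 95% interval from inhibition 0.05 to 0.31). Ptk2, the focal adhesion kinase, stood at 2487, 2549.9 and 2486 CPM in control, 99.9, 105 and 107 CPM in inhibition and 89.2, 96.7 and 92.1 CPM in spermidine libraries (-4.76 ± 0.04, adjusted p = 4.6e-22, and -0.24 to -0.09 from inhibition). Phkg1, a phosphorylase kinase subunit, stood at 109, 109.9 and 96.6 CPM in control, 7.99, 8.35 and 7.25 CPM in inhibition and 7.86, 8.53 and 7.97 CPM in spermidine libraries (-3.69 ± 0.07, adjusted p = 1.7e-17, and -0.15 to 0.24 from inhibition). At these 3 genes, chosen for that pattern, both treated groups lay close together and far from control. Total count scaling moved every direct difference up by about 0.261, a shift that these TMM intervals do not take into account. Over all genes the 2 treated groups did not overlap at 62.8%, and the direct contrast called 8396 (58.1%), but 1366 (9.45%) at least 2-fold higher and 469 (3.24%) at least 2-fold lower.

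A second set differed most from inhibition in the same direction as from control. Its rises were led by the Y-linked Eif2s3y and Ddx3y, followed by Vmn2r29, Vmn1r91, Or6x1 and Zfp488, and its falls were Emc1, H4c12, H4c1, Tmsb15b1, Rhag and Parm1. Zfp488, a zinc finger transcription factor, stood at 3.64, 3.27 and 3.35 CPM in control, 4.12, 3.86 and 3.35 CPM in inhibition and 11.04, 11.6 and 11.8 CPM in spermidine libraries (1.74 ± 0.10, adjusted p = 7.1e-11, and from inhibition 1.60 ± 0.10, adjusted p = 6.8e-10). Rhag, the Rh-associated glycoprotein of red cells, stood at 13.4, 11.9 and 12.8 CPM in control, 3.13, 2.91 and 3.5 CPM in inhibition and 0.967, 0.9001 and 1.27 CPM in spermidine libraries (-3.62 ± 0.13, adjusted p = 1.7e-13, and from inhibition -1.62 ± 0.17, adjusted p = 5.1e-07). Inhibition was near the control level for Zfp488 and between the other groups for Rhag, while for Or6x1 it was below control and spermidine above it. The vomeronasal and olfactory receptor genes and the histone genes belong to families whose members share reads.

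A further set was changed by inhibition alone and lay within 0.5 of control, by its 95% interval, with spermidine. Genes above control with inhibition were Plbd1, Prss34, Ms4a6d, Dstn, G6pdx and Msrb1, and genes below it were Slc15a2, Tle6, Tap2, Nfia, Id3 and Itsn1. G6pdx, the first enzyme of the pentose phosphate pathway, stood at 12.1, 13.2 and 12.2 CPM in control, 32.02, 33.1 and 33.6 CPM in inhibition and 12.2, 11.2 and 13.2 CPM in spermidine libraries, with an interval from control of -0.20 to 0.11. Prss34, a basophil protease, stood at 22.9, 23.1 and 23.2 CPM in control, 62.01, 61.1 and 63.1 CPM in inhibition and 28.8, 30.4 and 27.5 CPM in spermidine libraries (interval 0.22 to 0.43). Id3, an inhibitor of helix-loop-helix factors, stood at 21.3, 24.2 and 23.01 CPM in control, 10.8, 10.3 and 11.5 CPM in inhibition and 25.5, 25.9 and 26.6 CPM in spermidine libraries (interval 0.05 to 0.31). At these genes, chosen for that pattern, spermidine libraries lay near control and inhibition libraries apart, although control and spermidine libraries overlapped only at G6pdx. Since the interval moves with scaling, the closeness of G6pdx to control (-0.05 under TMM) became 0.214 under total count scaling.

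**Figure D5:**
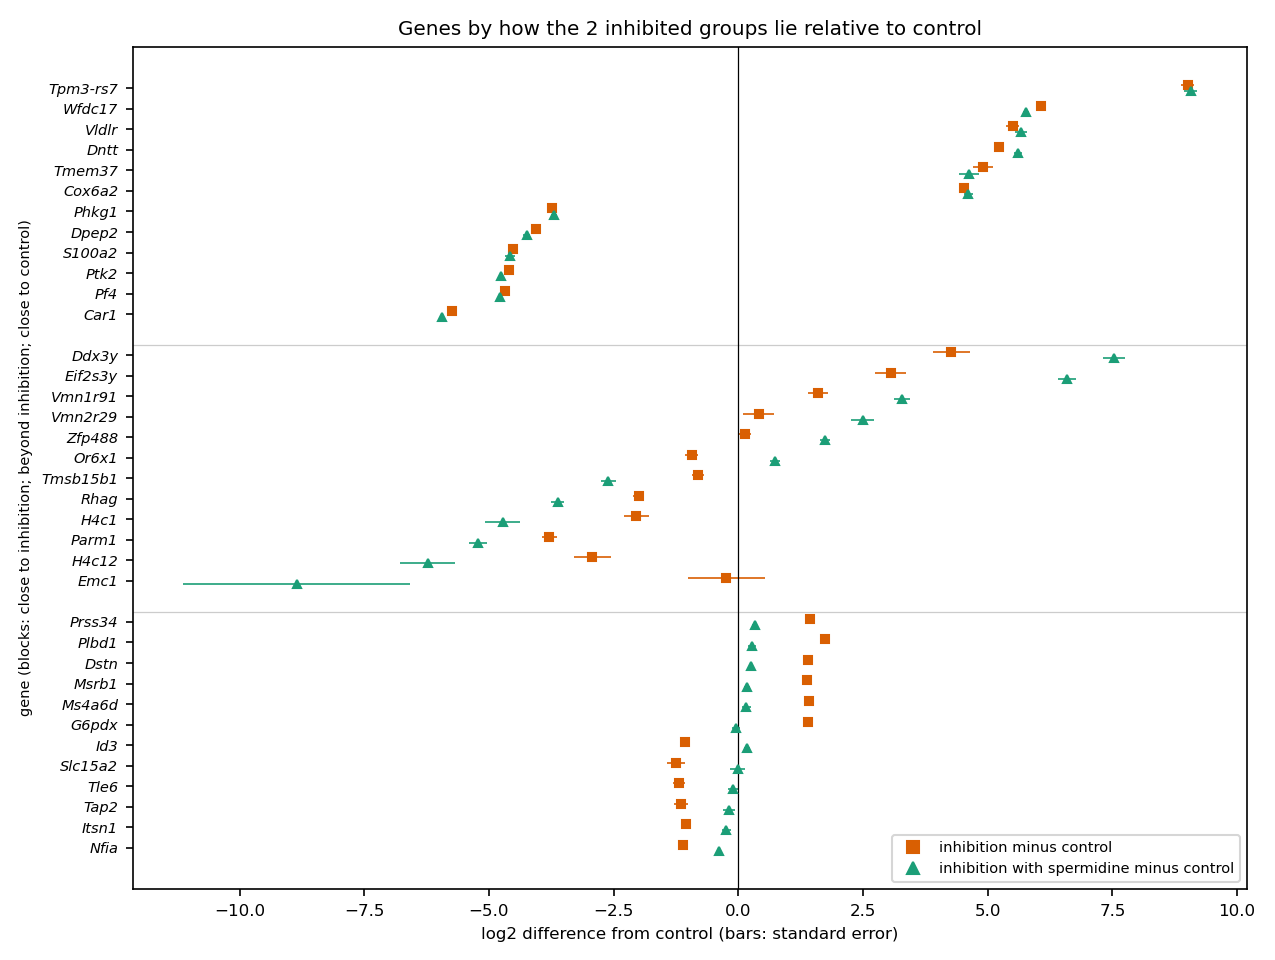
Log2 difference from control with its standard error for inhibition (squares) and inhibition with spermidine (triangles), in 3 blocks of 12 genes each: close to the inhibition level, beyond inhibition in the direction of the difference from control, and close to control with spermidine. The blocks show the patterns the genes were chosen for, and Emc1 has the widest error.

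Genes of the Y chromosome differed between groups in opposite directions. Ddx3y (an RNA helicase) stood at 0.121, 0.0536 and 0.0516 CPM in control, 1.97, 1.33 and 1.4 CPM in inhibition and 14.9, 14.7 and 14.6 CPM in spermidine libraries, and Eif2s3y (a translation initiation subunit) at 0.0607, 0.215 and 0.3096 CPM in control, 1.598, 1.58 and 2 CPM in inhibition and 19.3, 20.3 and 20.6 CPM in spermidine libraries. Both were near the floor in control and highest with spermidine. Uty (a demethylase family member), named after its values were seen like Kdm5d, stood at 87.7, 90.3 and 87.7 CPM in control, 3.69, 4.24 and 4.65 CPM in inhibition and 7.05, 7.55 and 7.58 CPM in spermidine libraries, and Kdm5d (a lysine demethylase) at 13.6, 13.03 and 14.5 CPM, 5.29, 4.901 and 5.45 CPM and 9.43, 11.1 and 9.69 CPM in the same order. Both were highest in control. The labels give no sex, and a difference in sex between the groups cannot be told apart from the treatment.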

How the data were processed

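RNA was measured by low-input RNA sequencing in 9 libraries of sorted mouse HSCs, 3 per group. The authors deposited 1 table of estimated counts per gene and 1 of TPM (levels corrected for transcript length and library total), both limited by their names to expressed genes. Tools named in the submitters' processing notes are STAR 2.6.1d, HTSeq 0.10.0 and Trim Galore 0.6.2, beside edgeR and the build mm10, and which step made the fractional counts is not given in the sources used here. Of the deposited estimated counts 48.2% were whole (tolerance 1e-06), and all were rounded. The deposited TPM columns summed to 937835 to 948801.

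Estimated counts were filtered by edgeR's filterByExpr, scaled by TMM and fitted with edgeR 4.0.16 (R 4.3.3) as 1 quasi-likelihood model over all 9 libraries with group as the only term. Contrasts were spermidine minus control, inhibition minus control and spermidine minus inhibition, with Benjamini-Hochberg adjustment over 14461 genes and a threshold of 0.05. The first 2 contrasts share the control libraries. In counts simulated for spermidine against control, 12854 of 13030 genes were left unchanged, and 0.0778% of these were called. Of genes changed by 1 on the log2 scale, 84.8 to 85.4% were called. In the real libraries 78.1% of genes were called, and the rate of wrong calls when most genes differ was not tested. Alternatives used DESeq2 1.42.0, limma 3.58.1 on log2(TPM + 1) or log2(TPM + 0.1), other scaling and filters, fewer libraries, a replicate block and tests without genes of other cell types. Leaving out each inhibition library was chosen after seeing the data.

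Gene symbols and coordinates came from GENCODE M21 (19443 of 19454 identifiers matched) and promoter windows from RefSeq. The 39 lists and all members were chosen with earlier results of these data known. Of 1132 list entries 11 matched no gene, as did 2 histone entries. Genes were named as the 10 largest rises and falls, up to 4 per list by smallest p, a set of 49 key genes and 6 per direction for each of 3 patterns against inhibition. For the rises and falls, groups could not overlap, the higher group had at least 5 CPM, and unnamed models, pseudogenes and antigen receptor segments were left out. HSC markers were listed apart, and Epor, Gp5, Gbp3, Isg15, Kdm5d, Mmrn1, Paox and Uty were named after their values were seen. Replicates of a group differed by more than counting noise, with a mean chi-square of 2.62 to 8.67 per gene.
Results on a few genes are not reported here.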

Additional observations from a re-analysis of the deposited data

How the results depend on the processing

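The number of genes called moved by more than 1.5 times with limma on TPM, which tested 12151 genes with the filter and 19454 without. Lower genes in spermidine against control numbered 2608 with log2(TPM + 0.1), 2660 with log2(TPM + 1) and 2918 without the filter, where 9239 were higher. The share of calls that were higher was 70.9%, 70.6% and 76% in these fits. At least 2-fold lower genes numbered 1025, 658 and 658, and 2-fold higher genes 1344 and 1343 in the latter 2. In spermidine against inhibition, 1160, 1196 and 1333 genes were lower, and 7997 were higher without the filter. Total count scaling gave 7711 higher and 1793 lower. The causes were not tested.

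With 1 library left out, spermidine against control gave 5698 to 6047 higher and 5170 to 5592 lower genes, of which 2978 to 3175 and 1779 to 1873 were at least 2-fold. Inhibition against control gave 4934 to 5275 and 5102 to 5269, and spermidine against inhibition 3714 to 4323 and 3896 to 4302. A replicate block gave 5889 higher and 5320 lower genes in spermidine against control. Deviations of libraries with the same number correlated at -0.0365 to 0.0526, so no shared effect of the number was visible. The labels do not say whether libraries with the same number share an animal or day.

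Of 2845 values of 143 named genes under alternatives, 2757 kept direction and side of the threshold, 54 lost the call, 11 gained one and 23 changed sign. The sign changed from negative to positive at 6 genes, given here for log2(TPM + 0.1), for log2(TPM + 1) with or without the filter, and for total count scaling. G6pdx was at 0.368, 0.294 and 0.214, Sms at 0.121, 0.114 and 0.094, Cdk6 at 0.305, 0.303 and 0.239, Itsn1 at 0.139, 0.107 and 0.023, and Odc1 at 0.127, 0.125 and 0.053. Paox was at 1.007 and 0.842 on TPM and kept its sign under total count scaling. Genes near 1 CPM are limited by depth.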
